A study of Mus musculus with 8 samples.

Results

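The 36 genes described here encode parts of the neuronal cytoskeleton and proteins of axon growth: tubulins, proteins that bind, move or destabilise microtubules, growth cone proteins, neurofilaments and the ankyrin and spectrin skeleton under the axon membrane. They were chosen by gene symbol, and 36 of the 39017 genes in the count table carried one of the member symbols. RNA was sequenced from tdTomato-positive cells sorted from the cochlear nucleus, the first auditory relay of the hindbrain, of C57BL/6 mouse embryos at E18.5. The wild type group held 4 samples of genotype Math1::Cre; Rosa tdTomato, and the mutant group held 4 samples that carried Hoxa2+/fl; Hoxb2fl/fl in addition, per the sample titles. The series text instead gives Hoxa2fl/fl, so the number of conditional Hoxa2 alleles is uncertain. Both groups thus carry the Cre and the reporter, and they differ in the floxed Hox alleles. Cre was driven by Math1, the rhombic lip transcription factor now named Atoh1, so the sorted cells are those with a present or past history of Math1-driven Cre, at whatever stage of maturation. Each sample pooled 3 littermate embryos and 30000 sorted cells, and each came from a different mother. Litter and sample can therefore not be told apart.

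A newborn neuron that migrates and sends out its first axon relies on dynamic microtubules, on proteins that steer or bundle them, such as doublecortin, and on growth cone proteins such as GAP-43. As axons mature, neurofilaments and the ankyrin and spectrin lattice take over structural roles: neurofilament subunits co-assemble, and ankyrin-G anchors channels at the axon initial segment. Granule cells and excitatory projection neurons of the cochlear nucleus descend from Atoh1-expressing rhombic lip progenitors, and Hox genes of paralogue group 2 pattern this part of the hindbrain. The members were split into 18 genes of migrating young neurons, 9 neurofilament and mature structural genes, and 9 genes placed in neither list.

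Total counts ranged from 24789043 to 51118195 per library. Hoxb2 checked the labels: it stood at 37.4 to 46.6 CPM (reads per gene relative to the library size, with TMM correction for composition) over the wild type libraries, and the mutant range was 3.77 to 6.81 CPM, or -3.00 on the log2 scale (edgeR adjusted p = 3.76e-05). Hoxa2 had -0.70 and its groups overlapped (adjusted p = 0.506). Markers of the Atoh1 lineage were present in every library, with Atoh1 itself at 28.5 to 154 CPM, Neurod1 at 1431 to 2322 CPM and Barhl1 at 352 to 540 CPM. Red cell, microglial, endothelial and pericyte markers summed to at most 21.2 CPM per list in any library. Among them the microglial C1qa was lower in the mutant (0.858 to 3.65 against 0.108 to 0.350 CPM, adjusted p = 0.0115), as was Nhlh1 among the 10 Atoh1 lineage markers (81.7 to 93.7 against 40.4 to 56.1 CPM, adjusted p = 0.00603). In the Atoh1 lineage list 3 of 10 fold changes were positive, with Zic1 at 0.38 (adjusted p = 0.382). Of 5 tested microglial genes 1 was positive, Csf1r at 0.07, and C1qa rested on 4 to 18 counts per mutant library. The part of these differences in the values of the 36 genes was not tested. The globin genes Hba-a1 and Hba-a2 were at 0 in all 8 libraries. Another globin gene, Hbb-bs, measured 0.386 to 1.92 CPM in wild type and 0 to 0.544 CPM in mutant libraries. Astrocyte and radial glia markers summed to 660 to 944 CPM per wild type library, with a mutant range of 419 to 881 CPM (1 of 9 fold changes positive). Of 19494 genes tested, 70 passed an adjusted p below 0.05 in edgeR's quasi-likelihood test, 28 higher and 42 lower in the mutant, which is 0.359% of the genes tested. Wild type 5, wild type 6 and mutant 1 stood apart from the other 5 libraries by high dividing cell markers, and results are given with and without them. Libraries are numbered by the headings of the count table. In bulk RNA, fewer cells of a type and less RNA per cell cannot be told apart.

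None of the 36 genes passed that threshold, and the smallest adjusted p was 0.146. At an unadjusted p below 0.05, 4 of the 36 passed against 12.5% of all tested genes: Tubb2a, Ina and Doc2g with higher levels in the mutant and Nefm with a lower one. In 2 of the 36, Nefm and Doc2g, the groups did not overlap, against 6.17% of all tested genes. Both shares are near the background. The fold change was positive in 26 of the 36 genes, against 48.4% of all tested genes, and the median log2 fold change was 0.18 against -0.01. Over all alternative settings the number of positive genes ran from 23 to 29. Members were measured in the same 8 libraries and vary together, so that count does not stand for 36 separate observations.

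**Figure D1:**
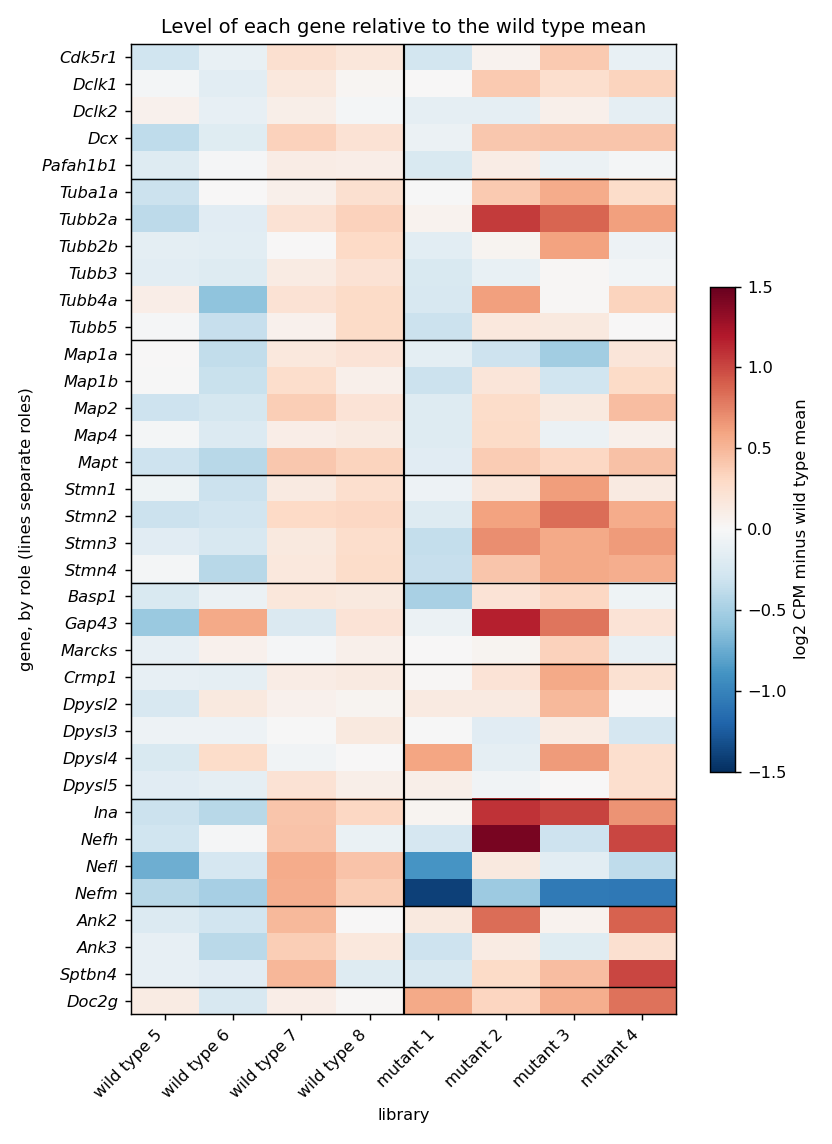
Log2 CPM of each of the 36 genes (rows, grouped by role) in each of the 8 libraries (columns), minus the wild type mean of that gene; red is higher, blue is lower, and values past 1.5 in either direction take the end colour. Wild type 5, wild type 6 and mutant 1 are mostly blue, Tubb2a and Ina are red in mutants 2 to 4, and Nefm is blue in all 4 mutant libraries.

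**Figure D2:**
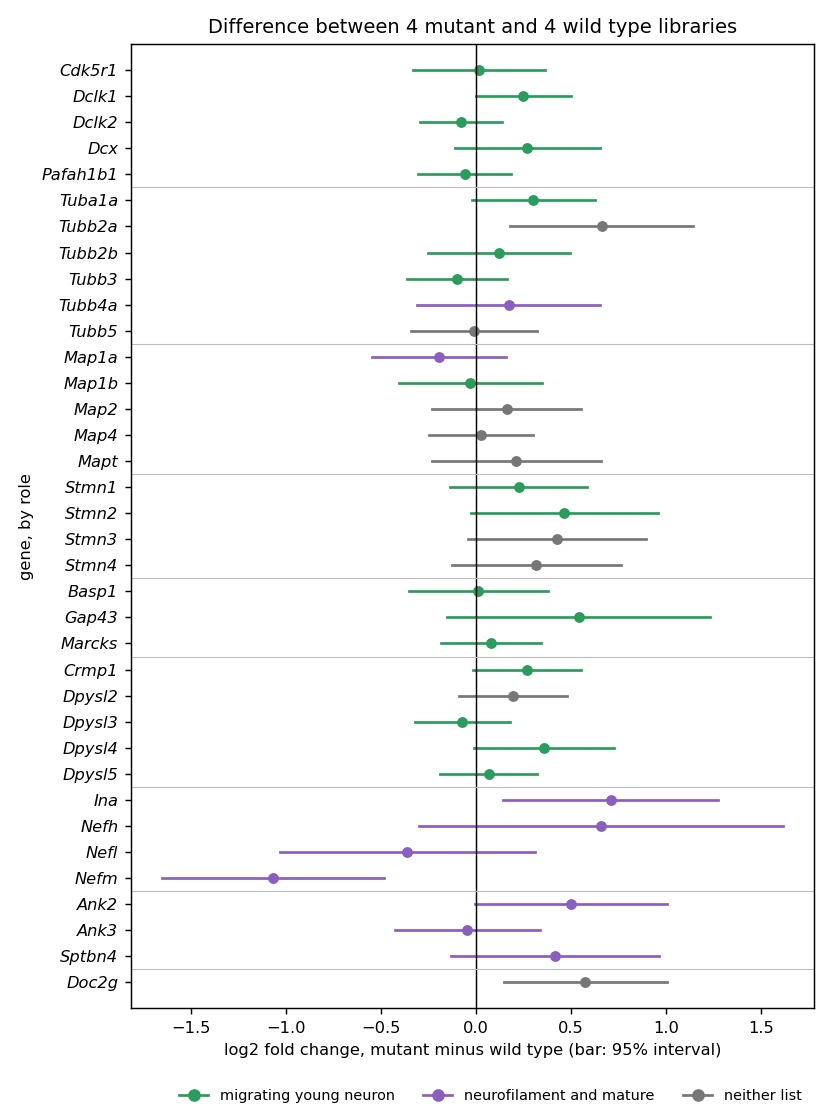
Log2 fold change, mutant minus wild type, with its 95% interval for each of the 36 genes, grouped by role and coloured by list. The interval stays on one side of 0 for Tubb2a, Ina and Doc2g (above) and Nefm (below), before any adjustment for the 19494 genes tested.

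Of the 5 genes of neuronal migration, 3 had a positive and 2 a negative fold change (that of Cdk5r1, near 0, changed sign in 6 of 16 alternative settings), and none passed the test. Dcx encodes doublecortin, the microtubule-binding protein of migrating neurons. It measured 1352, 1553, 2240 and 2050 CPM across wild type 5 to 8 and 1653, 2325, 2347 and 2347 CPM across mutants 1 to 4. Mutants 2 to 4 lay above every wild type library and mutant 1 lay inside the wild type range, with a fitted log2 difference of 0.27 (SE 0.175, edgeR adjusted p = 0.54). Dclk1, a doublecortin-like kinase, had 0.25 (SE 0.115, adjusted p = 0.402), with a wild type mean of 427 ± 38.7 CPM (SD, n = 4) and a mutant mean of 508 ± 56.8 CPM (SD, n = 4). The related kinase Dclk2 had -0.08. Pafah1b1, which encodes the dynein regulator LIS1, had -0.06 with an interval from -0.30 to 0.18. Cdk5r1, which encodes the p35 activator of the kinase Cdk5, had 0.02 with an interval from -0.33 to 0.37.

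Among the 6 tubulins, the alpha and beta subunits of microtubules, only Tubb2a had an unadjusted p below 0.05. It measured 42.8, 49.9, 65.1 and 71.7 CPM across wild type 5 to 8 and 58.2, 116, 103 and 86.1 CPM across mutants 1 to 4. Mutants 2, 3 and 4 exceeded every wild type library, and mutant 1 fell between wild type 6 and wild type 7. The log2 fold change was 0.66 (SE 0.218, 95% interval 0.18 to 1.14, edgeR adjusted p = 0.269). Its close relative Tubb2b, a beta-tubulin of migrating neurons, measured 196, 195, 218 and 267 CPM across wild type 5 to 8 and 195, 223, 331 and 205 CPM across mutants 1 to 4. The Tubb2b groups overlapped, and its log2 fold change of 0.12 (adjusted p = 0.787) turned to -0.08 without mutant 3. Tuba1a, the main alpha-tubulin of young neurons, had 0.30 (SE 0.149, adjusted p = 0.431) from a wild type mean of 1384 ± 216 CPM. The neuron-specific Tubb3 had -0.10 (interval -0.36 to 0.16), Tubb4a, a beta-tubulin of mature axons and myelinating cells, 0.17, and the widely expressed Tubb5 -0.01.

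Tubb2a (chr13:34074274-34078007, minus strand, mm10) and Tubb2b (chr13:34126748-34130466, minus strand) lie 48740 bases apart. Their GENCODE M21 coding sequences of 1335 bases differ at 47 positions and are 96.5% identical, with a longest identical run of 551 bases. Reads inside such a run cannot be assigned to either gene from their sequence, and the authors' rule for such reads is not stated. The 60 coding bases below, bases 112 to 171 counted from the start codon, are shown because they hold 10 of the differing positions, in capitals, and so separate the transcripts. They are given 5′ to 3′ on the coding strand.
Tubb2a: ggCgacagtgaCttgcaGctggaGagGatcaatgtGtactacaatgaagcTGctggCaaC
Tubb2b: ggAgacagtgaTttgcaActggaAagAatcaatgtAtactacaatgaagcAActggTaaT
The other beta-tubulin members were 82.1% to 84.4% identical to one another and to this pair. The ratio of Tubb2a to Tubb2b per kilobase of gene width measured 0.265, 0.311, 0.362 and 0.326 across wild type 5 to 8 and 0.363, 0.631, 0.377 and 0.509 across mutants 1 to 4. All 4 mutant ratios were higher than all 4 wild type ratios, although mutant 1 exceeded wild type 7 only in the third digit. This ratio was chosen after its values were seen and was not tested. How many other gene pairs separate the groups in this way was not counted. Tuba1a is 98.3% identical to Tuba1b in its coding sequence and 97.3% to Tuba1c, so its counts carry the same uncertainty. Of the exon bases of Tuba1a, 473 belong also to Gm49450, a protein-coding model on the same strand, against a deposited width of 1647 bases.

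The 5 microtubule-associated proteins had log2 fold changes from -0.19 to 0.21 and a lowest adjusted p of 0.637. Map1b, a large microtubule protein of growing axons, drew the most reads of the 36 genes, without correction for length, with a wild type mean of 4448 ± 751 CPM (SD, n = 4) and a mutant mean of 4359 ± 949 CPM. Its log2 fold change of -0.03 (interval -0.41 to 0.35) changed sign without mutant 1, mutant 3 or wild type 7. Map1a, its counterpart of mature neurons, had -0.19 (SE 0.162). Map2, the dendritic microtubule protein, had 0.16, Mapt, which encodes tau, 0.21, and the widely expressed Map4 0.03. For these genes the data bound the change rather than show it absent: the widest interval, that of Mapt, ran from -0.23 to 0.66.

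All 4 stathmins, small proteins that bind tubulin dimers and destabilise microtubules, had a positive fold change, from 0.23 to 0.47, and none passed the test. Stmn2, the stathmin of growing axons also called SCG10, measured 719, 740, 1110 and 1121 CPM across wild type 5 to 8 and 790, 1372, 1608 and 1327 CPM across mutants 1 to 4. Stmn3 measured 102, 96.5, 126 and 137 CPM across wild type 5 to 8 and 88.9, 185, 169 and 177 CPM across mutants 1 to 4. In both genes mutants 2 to 4 lay above all wild type libraries and mutant 1 did not, and mutant 1 was the lowest of all 8 libraries for Stmn3. The fitted log2 difference was 0.47 (SE 0.222, edgeR adjusted p = 0.422) for Stmn2 and 0.43 (SE 0.213, adjusted p = 0.44) for Stmn3. Stmn4 had 0.32 (adjusted p = 0.537) and Stmn1, the stathmin that dividing cells also express, 0.23 (adjusted p = 0.591).

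All 3 growth cone genes, which encode membrane-bound substrates of protein kinase C, had a positive fold change and none passed the test, but the sign turned without mutant 3 for Marcks and in 6 of 16 alternative settings, library size scaling among them, for Basp1. Gap43 measured 152, 332, 193 and 258 CPM across wild type 5 to 8 and 210, 502, 390 and 258 CPM across mutants 1 to 4. Wild type 6 and mutant 2 were high within their groups, the groups overlapped, and the log2 fold change of 0.54 had an interval from -0.15 to 1.23 (adjusted p = 0.499). Marcks had 0.08 (interval -0.18 to 0.34) and Basp1 0.01 (interval -0.35 to 0.38). Whether Gap43 differs from these 2 genes was not tested.

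Of the 5 collapsin response mediator proteins, which couple guidance signals to microtubules, 4 had a positive fold change, with that of Dpysl5 turning negative without the 3 libraries that stood apart. Dpysl4 measured 72.7, 103, 82.0 and 85.7 CPM across wild type 5 to 8 and 128, 77.9, 133 and 101 CPM across mutants 1 to 4. Its groups overlapped, and mutant 1 was among its higher libraries, unlike for the stathmins. The fitted log2 difference was 0.36 (SE 0.168, edgeR adjusted p = 0.411). Crmp1 had 0.27 (SE 0.13, adjusted p = 0.427), Dpysl2 0.19, Dpysl5 0.07 and Dpysl3 -0.07.

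The neurofilament genes held both the highest and the lowest fold change of the 36. Nefm, the medium neurofilament subunit, measured 41.7, 39.5, 81.7 and 72.1 CPM across wild type 5 to 8 and 21.1, 38.1, 26.8 and 26.4 CPM across mutants 1 to 4. All mutant libraries lay below all wild type libraries, but mutant 2 and wild type 6 nearly touched. The wild type mean was 58.8 ± 21.4 CPM (SD, n = 4) against a mutant mean of 28.1 ± 7.16 CPM (SD, n = 4), for a fitted log2 difference of -1.07 (SE 0.263, 95% interval -1.65 to -0.48, edgeR adjusted p = 0.146). DESeq2, which called 2.77% of the genes it tested, put Nefm past the threshold at -1.06 (adjusted p = 0.0037), and it was the only one of the 36 that DESeq2 called. Over the 16 alternative settings tried, the value for Nefm ran from -1.34 to -0.86 and passed in 2. Nefl, the light subunit, measured 67.6, 94.8, 165 and 152 CPM across wild type 5 to 8 and 61.1, 125, 101 and 86.5 CPM across mutants 1 to 4. Its groups overlapped, with a log2 fold change of -0.36 (interval -1.03 to 0.31, adjusted p = 0.641). Nefh, the heavy subunit that joins the filament as axons mature, was low, at 0.563 to 2.01 CPM and 18 to 55 counts per library, and its fold change of 0.66 (SE 0.439) had an interval from -0.30 to 1.62.

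Ina encodes alpha-internexin, the neurofilament protein that appears early in developing neurons, and its values went the other way. It measured 267, 249, 445 and 414 CPM across wild type 5 to 8 and 342, 705, 671 and 529 CPM across mutants 1 to 4. Mutants 2 to 4 lay above every wild type library and mutant 1 lay inside the wild type range. The wild type mean was 344 ± 100.1 CPM (SD, n = 4) against a mutant mean of 562 ± 165 CPM (SD, n = 4), for a fitted log2 difference of 0.71 (SE 0.255, interval 0.14 to 1.27, edgeR adjusted p = 0.303). Set against each other per kilobase of gene width, Nefm over Ina measured 0.0874, 0.0889, 0.103 and 0.0976 across wild type 5 to 8 and 0.0345, 0.0303, 0.0224 and 0.0280 across mutants 1 to 4. The wild type mean was 3.27 times the mutant mean, and the lowest wild type ratio was above the highest mutant ratio. The ratio of Nefl to Ina was 0.242 to 0.365 in wild type and 0.144 to 0.171 in mutant libraries, and that of Nefm to Nefl 0.244 to 0.360 and 0.155 to 0.201. Each of these ratios separated the 2 groups, including wild type 5, wild type 6 and mutant 1, the libraries with the lowest levels of most members. These ratios were chosen after their values were seen and were not tested. They share genes, so they are not separate observations. How many other gene pairs separate the groups in this way was not counted.

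**Figure D3:**
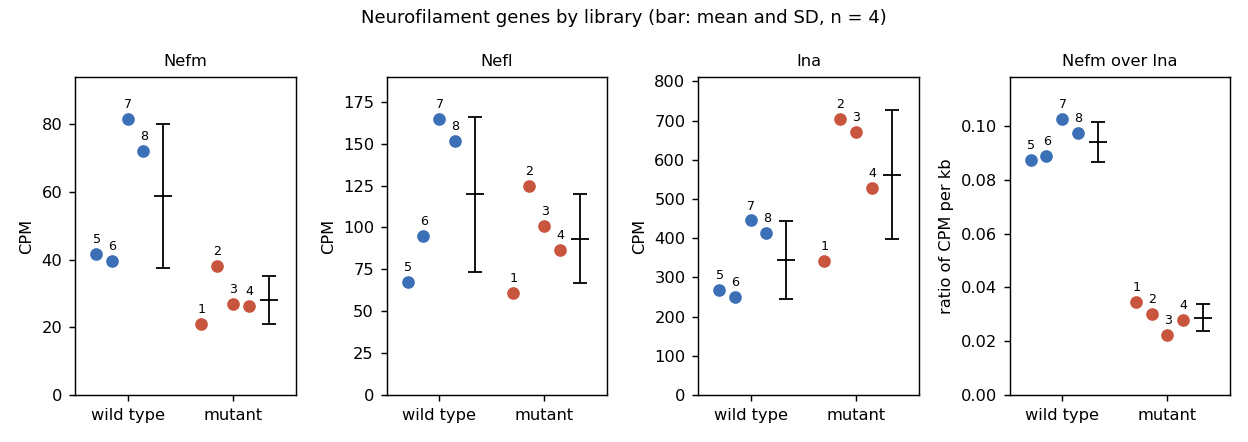
CPM of Nefm, Nefl and Ina, and the ratio of Nefm to Ina in CPM per kilobase, in each wild type (blue) and mutant (red) library, numbered as in the text, with the mean and SD of each group (n = 4) as a bar beside the points. The single genes nearly touch or overlap between the groups, while the Nefm over Ina ratio is 0.0874 or more in wild type and 0.0345 or less in mutant libraries. The ratio was chosen after its values were seen and was not tested.

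Counts at these loci may be shared. The first exon of Nefl (chr14:68083863-68085009, plus strand, mm10) shares 1108 bases with an exon of Nefm (chr14:68082590-68084970, minus strand) in GENCODE M21, and the gene widths in the deposited table, 3380 bases for Nefl and 5782 for Nefm, equal the exon unions of that annotation. No source used here says whether strand was kept. If it was not, reads in those bases could not be told apart or may have been dropped. The 5' end of Ina (chr19:47014698-47025327, plus strand) shares 456 exon bases with Nt5c2 on the other strand. Nt5c2 had a wild type mean of 54.3 ± 7.31 CPM and a mutant mean of 54.5 ± 6.62 CPM, a log2 difference of 0.01. In all, 11 of the 36 genes share exon bases with another annotated gene.

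Of the 3 genes of the ankyrin and spectrin skeleton, Ank2 had the largest fold change. Ank2, which encodes ankyrin-B of the axon shaft, measured 394, 374, 638 and 456 CPM across wild type 5 to 8 and 503, 816, 471 and 843 CPM across mutants 1 to 4. Mutants 2 and 4 lay above every wild type library while mutants 1 and 3 lay within their range, and the log2 fold change was 0.50 (SE 0.229, edgeR adjusted p = 0.406). Sptbn4, which encodes the beta-IV spectrin of axon initial segments and nodes, had 0.42 (SE 0.25, adjusted p = 0.515), and its wild type libraries ranged from 10.2 to 16.6 CPM. Ank3, which encodes ankyrin-G of the initial segment, had -0.04 (interval -0.43 to 0.34).

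Doc2g, a member of the double C2 domain family, measured 2.96, 2.30, 2.92 and 2.76 CPM across wild type 5 to 8 and 4.06, 3.43, 3.98 and 4.83 CPM across mutants 1 to 4. The groups did not overlap, and the log2 fold change was 0.58 (SE 0.197, edgeR adjusted p = 0.277). These values rest on 59 to 205 counts per library. Of the exon bases of Doc2g (chr19:4003313-4007005, plus strand), 1926 belong also to Gm49405, a protein-coding model on the same strand, against a deposited width of 3027 bases. Gm49405 had 0.65 (adjusted p = 0.236), and reads in the shared bases cannot be told apart. The other family members Doc2a and Doc2b had -0.22 (adjusted p = 0.547) and 0.90 (adjusted p = 0.308).

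Per kilobase of gene width, wild type levels spanned from 840 ± 131 CPM (SD, n = 4) for Tuba1a to 0.181 ± 0.0438 CPM for Nefh. The next highest were Tubb5 at 620 ± 109.9, Stmn2 at 485 ± 117 and Stmn1 at 472 ± 79.6 CPM per kilobase, and each of these overlapped the next in its range over wild type libraries. Among the neurofilament genes the order in wild type was Ina at 106 ± 30.9, Nefl at 35.4 ± 13.7, Nefm at 10.2 ± 3.69 and Nefh at 0.181 CPM per kilobase, and the ranges of these 4 over wild type libraries did not overlap. Alpha-internexin was thus the most abundant neurofilament transcript per length in every library, and Nefh the least. The migration gene Dcx, at 142 ± 32.8 CPM per kilobase, overlapped Ina in its range and lay above the ranges of the other 3. Widths are the authors' values, and 18 of the 36 equal the GENCODE M21 exon union.

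**Figure D4:**
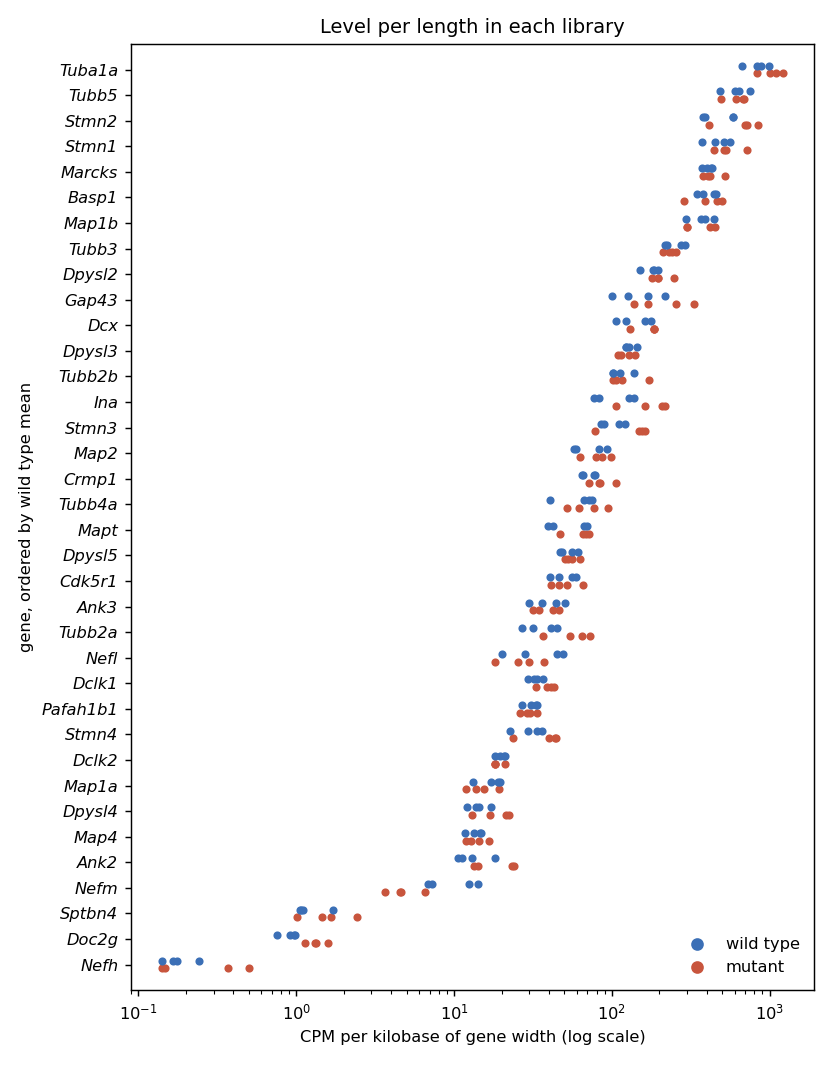
CPM per kilobase of deposited gene width (log scale) for the 36 genes in each wild type (blue) and mutant (red) library, ordered by the wild type mean. The genes span from Tuba1a at 840 to Nefh at 0.181 in the wild type mean, and for most genes the 2 colours overlap.

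The comparison of migrating young neuron genes with neurofilament and mature structural genes did not separate the genotypes. The 18 young neuron genes had a median log2 fold change of 0.10, with 13 positive, and the 9 mature genes 0.17, with 5 positive, against -0.01 over all tested genes. Mean log2 CPM of the young list measured 8.76, 8.87, 9.06 and 9.10 across wild type 5 to 8 and 8.86, 9.13, 9.29 and 9.07 across mutants 1 to 4. Mean log2 CPM of the mature list measured 6.21, 6.11, 6.86 and 6.61 across wild type 5 to 8 and 6.08, 6.86, 6.37 and 6.77 across mutants 1 to 4. The difference of the 2 lists, young minus mature, measured 2.55, 2.75, 2.20 and 2.48 across wild type 5 to 8 and 2.77, 2.28, 2.92 and 2.30 across mutants 1 to 4. Its mean was 2.50 ± 0.227 (SD, n = 4) in wild type and 2.57 ± 0.327 (SD, n = 4) in mutant libraries, and the difference of the means, 0.07, was smaller than either SD. The mature list is not uniform: it holds both Ina and Nefm, whose fold changes were 0.71 and -1.07. Ina, placed there as a neurofilament gene, appears early in developing neurons. No comparison was made with Ina outside the mature list. The 9 genes in neither list had a median of 0.21, with 8 positive.

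The 3 libraries that stood apart did so across the groups. Wild type 5, wild type 6 and mutant 1 were among the lowest 3 of the 8 libraries for 27, 26 and 28 of the 36 genes, each of the other 5 libraries for 4 to 8, and none of these 3 was the highest for any gene. The same 3 libraries had the highest summed level of 6 dividing cell markers (Mki67, Top2a, Cdk1, Ccnb1, Birc5 and Pcna), at 984, 987 and 731 CPM, against 286 and 427 CPM in wild type 7 and 8 and 402, 305 and 236 CPM in mutants 2 to 4. They also had the highest summed level of 7 dissociation response genes, at 285, 444 and 390 CPM against 127 to 210 CPM in the other 5. None of the 6 dividing cell markers and none of the 7 response genes passed the test between the genotypes, with negative fold changes in all 13. The part of dividing cells or of dissociation in the levels of the 36 genes was not tested. Inhibitory neuron markers summed to 30.5 to 57.9 CPM per wild type library and 44.2 to 102 CPM per mutant library, with 5 of 5 fold changes positive and none past the threshold, and their part in the higher values was not tested either.

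**Figure D5:**
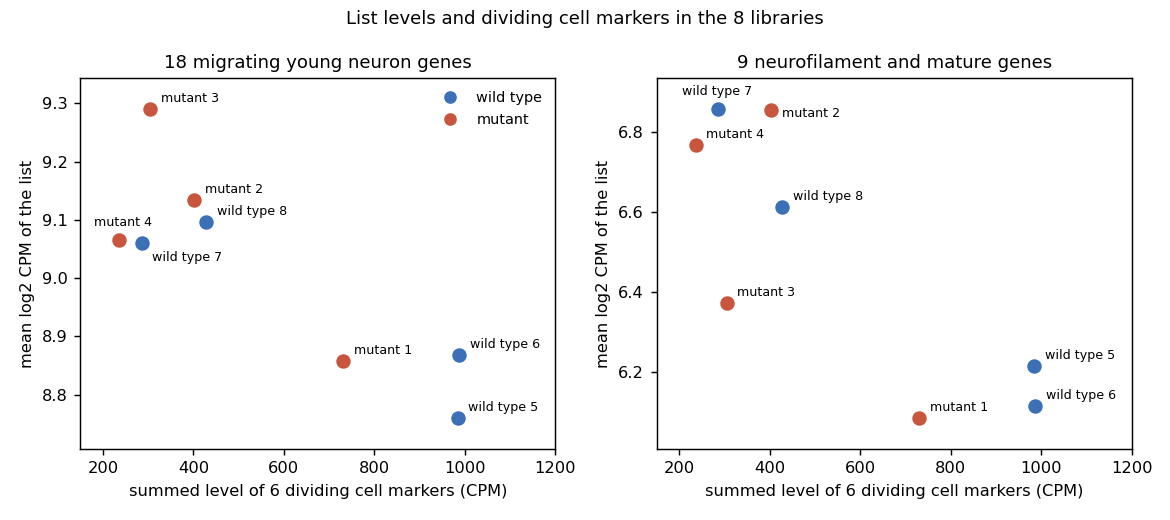
Mean log2 CPM of the 18 migrating young neuron genes (left) and of the 9 neurofilament and mature genes (right) against the summed CPM of 6 dividing cell markers, 1 point per library, wild type blue and mutant red. The 3 libraries with 731 CPM or more of dividing cell markers have the lowest 3 levels of both lists.

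Without mutant 1, 3 of the 36 genes passed an edgeR adjusted p below 0.05, against 2.7% of all genes tested, and all 3 were higher in the mutant. Ina had 0.89 (SE 0.205, adjusted p = 0.0461), Tubb2a 0.83 (SE 0.175, adjusted p = 0.0307) and Stmn3 0.62 (SE 0.135, adjusted p = 0.033). Mutant 1 was among the lowest 3 libraries for 28 of the 36 genes. Wild type 5 and wild type 6, likewise low for 27 and 26 genes, stayed in. Leaving out mutant 1 alone thus shifts the members towards higher values in the mutant, so the direction of calls in this setting is not separate evidence. At an unadjusted p below 0.05, 14 passed, 13 of them higher, against 19.2% of all genes. Leaving out any other single library gave 0 edgeR calls among the 36, with 4 to 9 at an unadjusted p below 0.05. Over all genes, 1453 to 2786 then had an unadjusted p below 0.05. With wild type 5, wild type 6 and mutant 1 all left out, which leaves 3 mutant against 2 wild type libraries, 1 gene passed against 0.849% of all genes: Nefm, which fell by 1.34 on the log2 scale (SE 0.175, adjusted p = 0.00772). At an unadjusted p below 0.05, 8 then passed, 6 higher and 2 lower, against 9.79% of all genes. The lower ones were Nefm and Nefl, the latter at -0.60 (adjusted p = 0.141), while Ina had 0.57 and Tubb2a 0.58 (adjusted p = 0.149 for both). Stmn3 had 0.43 (adjusted p = 0.202). With these 3 libraries left out, the young minus mature difference between the genotypes was 0.15.

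Ina, Tubb2a and Stmn3 passed together without mutant 1, and the 250 bases before each RefSeq start site (GRCm38.p6) are printed for that reason. Capitals mark matches, on either strand, to TATAAA (the TATA box) and TGACGTCA (the cyclic AMP response element, which reads the same on both strands). They also mark matches, on either strand, to GGCGGG (a GC-rich string, not the full GC box) and TGATNNAT (a Hox and Pbx pair site). No 2 marked matches overlap.
Ina, chr19:47014431-47014680, plus strand: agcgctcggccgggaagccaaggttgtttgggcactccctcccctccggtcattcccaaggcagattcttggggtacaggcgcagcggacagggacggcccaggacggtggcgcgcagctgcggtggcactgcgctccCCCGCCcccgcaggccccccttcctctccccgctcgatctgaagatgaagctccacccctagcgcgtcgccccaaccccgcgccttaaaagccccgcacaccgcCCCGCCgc
Tubb2a, chr13:34078009-34078258, minus strand: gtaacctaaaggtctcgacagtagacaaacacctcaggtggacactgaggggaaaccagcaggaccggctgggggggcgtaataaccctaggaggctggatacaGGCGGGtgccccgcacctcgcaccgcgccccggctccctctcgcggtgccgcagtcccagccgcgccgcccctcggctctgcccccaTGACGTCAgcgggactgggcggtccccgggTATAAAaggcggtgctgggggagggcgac
Stmn3, chr2:181314501-181314750, minus strand: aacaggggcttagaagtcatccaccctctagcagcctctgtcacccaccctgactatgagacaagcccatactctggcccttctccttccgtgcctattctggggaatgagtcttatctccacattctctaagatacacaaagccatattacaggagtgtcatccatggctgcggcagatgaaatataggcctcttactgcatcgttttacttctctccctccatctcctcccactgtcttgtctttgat
The 3 windows have little in common in the 4 capitalised strings. The window of Tubb2a held TATAAA, TGACGTCA and GGCGGG once each, that of Ina held GGCGGG in 2 places, and that of Stmn3 held none of the 4. GC content was 70.8% for Ina, 68.4% for Tubb2a and 48.8% for Stmn3. Windows were found for 21 of the 36 genes, 31 windows in all, and were set against all 32851 windows of the table. GGCGGG was in 54.8% of the member windows and 32.5% of all windows, TATAAA in 16.1% and 12.4%, TGACGTCA in 3.23% and 1.55%, and TGATNNAT in 6.45% and 7.68%. The E-box CANNTG, counted but not capitalised, was in 61.3% and 66.2%, and it occurred 1 time in each of the 3 printed windows. Median GC content was 61.6% in member windows and 52.4% in all windows. A match describes letters only, and several windows can belong to 1 gene.

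The rest of the cytoskeleton was read from 7 lists of 92 other genes, of which 91 were tested. None passed the edgeR threshold, 14 had an unadjusted p below 0.05 (12 higher and 2 lower, against 12.5% of all tested genes) and 52 had a positive fold change, with a median of 0.06. Of 10 tested tubulins outside the 36 genes, 3 were positive. The smallest p belonged to the centriolar delta-tubulin Tubd1, whose range of 0.214 to 1.38 CPM over the mutants lay below its wild type range of 1.65 to 2.88 CPM (log2 fold change -1.44, adjusted p = 0.249), and to Tuba8 (1.11, adjusted p = 0.353), at under 1 CPM. Among 24 microtubule-binding and severing proteins 17 were positive, with Fez1 at 0.50 (adjusted p = 0.291) and Map7d2 at 0.42 (adjusted p = 0.351). Among 24 motors and nuclear migration genes 12 were positive, and the kinesins Kif21a and Kif3a had -0.30 (adjusted p = 0.286) and 0.59 (adjusted p = 0.289). In the spectrin skeleton and initial segment list 6 of 6 were positive, though the lowest, Nfasc at 0.05, lay within the 0.06 by which scaling moved the median of all genes. The list was led by Ank1, the ankyrin of the red cell and neuronal membrane, which measured 5.11, 7.63, 8.24 and 5.52 CPM across wild type 5 to 8 and 10.1, 15.9, 9.34 and 20.3 CPM across mutants 1 to 4. Its groups did not overlap, and its log2 fold change was 1.07 (SE 0.262, adjusted p = 0.124). In the actin and growth cone list 12 of 21 were positive, and Ablim1, an actin-binding LIM protein, measured 7.89, 13.7, 22.7 and 15.7 CPM across wild type 5 to 8 and 17.8, 39.3, 31.6 and 39.0 CPM across mutants 1 to 4 (1.09, adjusted p = 0.238). The actin-sequestering Tmsb10 had 0.49 (adjusted p = 0.266). The other intermediate filament genes, Prph, Nes, Vim and Gfap, had -0.24 to 0.12. Ank1 passed with DESeq2, without the low-count filter, without mutant 1 and with limma-voom under sample quality weights, which called 1.2% of all genes. Ablim1 and the axon polarity gene Shtn1 (1.09 with all libraries) passed with DESeq2 and without mutant 1. Shtn1 was named after its values were seen.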

How the data were processed

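RNA-seq libraries of 4 wild type and 4 mutant samples were compared. The authors deposited 1 table of unnormalised read counts for Ensembl genes, with a width for each gene. Per the labels' protocols, 2 ng of RNA went into each library, with 14 PCR cycles, and the pool ran on 3 lanes. The submitters' processing notes name mm10 and bcl2fastq 1.8.4. Not given in the sources used here are the aligner, counter and strand setting. Column headings give group and a running number only, so columns were assigned to groups. Of 39017 genes, 37607 had a symbol, and 1 unnamed line was dropped.

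Counts were fitted in R 4.3.3 with edgeR 4.0.16 (filterByExpr, TMM scaling, robust quasi-likelihood F test, no covariate) and adjusted by Benjamini-Hochberg over all 19494 tested genes, with a threshold of 0.05. The common biological coefficient of variation over all tested genes was 23.2%, and its trended value for the 36 genes ranged from 15.3% to 35.9%. SE is approximate, from the fitted log2 fold change and its F statistic. List levels average log2 CPM over genes (prior count 2). Alternatives used DESeq2 1.42.0, limma 3.58.1 (voom, with and without sample quality weights), other scalings and filters, and fewer libraries. The sample quality weights were lowest for mutant 3 (0.411) and mutant 1 (0.648), while wild type 6 had 0.831 and wild type 5 had 1.26. No pair of libraries agreed within sampling noise (lowest chi-square per gene 16.5 over 28 pairs).

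The members, the lists and the set of 3 libraries left out together were chosen with earlier results of these data known. All 36 members could be named. From each other cytoskeleton list the genes past the threshold, or else the 2 with the smallest p, were named, and Hoxb2 and Hoxa2 once. One gene taken by this rule is not reported here but stays in the list counts. Marker lists were reported by sums and by defining genes. The pan-neuronal list (5 genes, summing to 1370 to 1778 CPM per library) and the oligodendrocyte list (9 genes, 73.3 to 105 CPM) had 3 and 4 positive fold changes, and none of their genes passed. Positions and exons are from GENCODE M21 on the same build, and promoter windows from RefSeq on GRCm38.p6.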

Additional observations from a re-analysis of the deposited data

Results flagged for a closer look

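Within 4 of the 72 groups of 4 libraries examined (36 genes in 2 genotypes), 1 library lay far from the other 3 by Dixon's test at the 95% level. Chance alone flags about 1 in 20 groups. Mutant 1 was low for Dcx, at 1653 CPM against 2325 to 2347 CPM in the other mutants, and for Stmn3, at 88.9 CPM against 169 to 185 CPM. Mutant 3 was high for Dclk2, at 84.8 CPM against 73.2 to 73.5 CPM. Wild type 7 was high for Sptbn4, at 16.6 CPM against 10.2 to 10.7 CPM. Mutant 1 also carried 731 CPM of summed dividing cell markers against 236 to 402 CPM in the other mutants, and the part of this in its low values was not tested.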

How the results depend on the processing

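The 36 genes had 0 calls with edgeR, 4 at an unadjusted p below 0.05, 1 call with DESeq2, 1 without the 3 libraries that stood apart (mutant 1, wild type 5, wild type 6), and 0 to 3 with single libraries left out, where only mutant 1 gave any. With all 8 libraries, their 4 at an unadjusted p became 10 with sample quality weights, 7 with DESeq2, 7 without the low-count filter, 6 with DESeq2 size factors and 4 or 5 under the other settings. It became 14 when mutant 1 was left out, 9 for wild type 7, 8 for wild type 8, 8 for the 3 libraries and 4 to 6 for each other library. Over all genes this number moved as well. From 2439 it became 3252 with sample quality weights, 2618 with DESeq2, 3370 without the low-count filter and 2431 with DESeq2 size factors. It became 3862 when mutant 1 was left out, 2786 for wild type 7 and 2379 for wild type 8. For the 3 libraries it was 1972, and 1453 to 2030 for each other library. Other cytoskeleton genes had 0 calls, and 1 without the low-count filter, 3 with DESeq2, 1 with sample quality weights and 0 to 3 with single libraries left out. Over all genes the 70 calls became 214 without the filter, 497 with DESeq2, 233 with quality weights, 171 without the 3 libraries and 26 to 544 with single libraries left out (26 to 36 for mutants 2 to 4, wild type 5 or wild type 8). The cause was not tested. The young minus mature difference of 0.07 ran from -0.05 to 0.17. Under the minimum of 1 CPM it was 0.12, with Nefh dropping out.

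Signs turned for 9 genes whose fold changes were near 0, none of them past the threshold anywhere. With library size only, which moved the median of all genes by 0.06, they were -0.034 for Map4, -0.041 for Basp1 and -0.034 for Cdk5r1. With quality weights they were 0.068 for Map1b, 0.037 for Ank3 and -0.034 for Cdk5r1, without the filter 0.0013 for Tubb5, and with limma-voom -0.0078 for Basp1. Without the 3 libraries they were -0.012 for Map4, -0.073 for Dpysl5 and -0.075 for Cdk5r1. With single libraries left out, ranges were -0.078 to 0.24 for Tubb2b, -0.11 to 0.10 for Tubb5, -0.14 to 0.068 for Map1b, -0.069 to 0.096 for Map4, -0.023 to 0.14 for Marcks, -0.10 to 0.15 for Basp1, -0.16 to 0.090 for Ank3 and -0.12 to 0.11 for Cdk5r1. No paired analysis was possible because the table's columns do not carry the replicate numbers of the sample titles. Each sample came from a different mother, so these numbers would not define pairs of littermate samples either. Depth limits Nefh, at 18 to 55 counts per library, and Doc2g.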
